A study of Homo sapiens with 23 samples.

Results

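Histones are the proteins that DNA is wound on. The genes described here are the clustered histone genes of the RNA table, taken as every row whose gene name starts with HIST1H, HIST2H, HIST3H or HIST4H, without the 14 rows whose names mark numbered pseudogenes (PS). This rule gave 76 of 58358 genes, with 6 genes of the linker histone H1 and 17 of H2A, 23 of H2B, 15 of H3 and 15 of H4, the core histones. Of these, 55 lie on chromosome 6, 20 on chromosome 1 and 1 on chromosome 12. Gene identifiers matched 70 of them to RefSeq and an older symbol the other 6. The current GENCODE annotation calls 6 of the 76 pseudogenes, among them HIST2H3DP1, whose name marks it in another way. Another of them, HIST2H2BB, passed the expression filter described below. Expression was not used to choose the 76 genes.

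The study asked how missense mutants of the transcription factor p53 change MCF10A cells, a non-transformed human mammary epithelial line with wild-type p53. RNA was sequenced from 13 untreated lines with 1 library per line, and chromatin bound by V5-tagged p53 was sequenced in 5 of them. The 4 DNA contact mutants were R248Q, R248W, R273C and R273H, and the 6 structural mutants were H179R, Y163C, R175H, Y220C, Y234C and G245S. Each of these lines carried V5-tagged mutant p53 from a stable lentiviral vector on top of the endogenous wild-type protein. The paper reports raised mutant p53 protein by western blot in all of them but Y234C. The 3 control lines were WTKD, with wild-type p53 knocked down by a short hairpin RNA, WTOE, with V5-tagged wild-type p53 from another lentiviral vector, and WT, with endogenous p53 and no V5 tag. Mutation and vector cannot be told apart in any comparison of the mutant lines with the controls, and each line is a separate stable population, so differences between lines also hold whatever else sets the lines apart.

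The deposited value is log2(TPM+1), where TPM is a share of all transcripts that allows for gene length. Read counts are not in the table, so depth is unknown. The paper reports that most reads were duplicates and that the mitochondrial share was high and differed between samples. How far this moved the values of single genes was not tested. A filter kept each gene that reached 1 on this scale in 3 or more lines, 14884 genes in all and 52 of the 76 histone genes. Summed over 7 basal mammary markers the level was 1115 to 4467 TPM in the mutant lines and 2264 to 3756 TPM in the controls. KRT5 was at 9.97 to 11.85 in all 13 lines, but KRT14 was listed at 0 in R273H and TP63 in R248W, R273C and R273H. Summed over 6 fibroblast markers it was 2.35 to 56.6 TPM in the mutant lines and 2.69 to 7.91 TPM in the controls, with DCN above 0 in every line, and the 4 blood cell markers were listed at 0. The libraries of R273H and Y234C stood apart, with 12122 and 12409 genes detected (up to 15975 in the others, with WT also low at 12284) and with 37.4% and 46.8% of all TPM in the 50 highest genes, against 27.1% to 33.6% in the other 11 lines.

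Most clustered histone genes are replication-dependent. They are switched on by NPAT as cells enter S phase, and their messages end in a short stem-loop instead of a poly(A) tail. The stem-loop is bound by SLBP, the U7 snRNP with LSM10 and LSM11 guides the cut behind it, and the messages are destroyed when DNA synthesis stops. Copies of the same histone are spread over several genes, so a cell's supply of H4, for example, is the sum over many H4 genes. In bulk RNA a smaller share of cells in S phase and less histone mRNA per cell in S phase cannot be told apart.

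The stem-loop was searched behind the stop codon in GRCh38, since it is what the messages have in common and the copies differ in it. All 70 genes with an annotated coding end held the pattern GGNNNTTNTNANNNCC on the sense strand within 150 bases, against 43 of 20361 other coding genes (0.211%). The loop began 26 to 71 bases after the stop codon, with a median of 39. There were 10 versions, and 40 genes shared the commonest of them. The sites of abundant genes of each class, of HIST1H2AG, an H2A gene that departs from the others of its class, and of the H4 genes described further on are shown in gene sense, with the 16 bases of the stem-loop in capitals and 5 bases on either side:
HIST1H1E, chr6:26157090-26157115, + strand: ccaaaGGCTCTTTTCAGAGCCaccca
HIST1H3B, chr6:26031592-26031617, - strand: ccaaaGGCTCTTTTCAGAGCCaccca
HIST2H2AC, chr1:149887386-149887411, + strand: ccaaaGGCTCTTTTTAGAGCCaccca
HIST1H2BC, chr6:26123467-26123492, - strand: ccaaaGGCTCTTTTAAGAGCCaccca
HIST1H2AG, chr6:27133510-27133535, + strand: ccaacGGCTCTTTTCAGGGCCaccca
HIST1H4B, chr6:26026896-26026921, - strand: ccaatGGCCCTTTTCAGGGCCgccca
HIST1H4C, chr6:26104312-26104337, + strand: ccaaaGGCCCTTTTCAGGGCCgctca
HIST1H4D, chr6:26188710-26188735, - strand: ccaacGGCCCTTTTCAGGGCCaccta
HIST1H4E, chr6:26204996-26205021, + strand: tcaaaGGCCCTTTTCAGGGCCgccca

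Counted from the first base of the stem-loop, all 15 H4 genes carried T4C together with A13G against the commonest version, which changes a base pair of the stem and keeps it paired. No gene of another class carried both. HIST1H2AG carried A13G alone. HIST2H2AC carried C10T, in the loop, and the version with C10A was found in 10 genes, 5 of them H2B genes and HIST1H2BC among them. The 15 H4 genes held 3 versions, in 10, 4 and 1 of them.

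The promoters differed between classes too. RefSeq start sites on GRCh38.p14 were found for 65 of the 76 genes, and 300 bases (250 before and 50 after the start) were searched on both strands for CCAAT, the box bound by NF-Y, for TATAAA, the TATA box, and for TTTGCAT, the core of the octamer bound by OCT1. None of the 3 motifs contains another on either strand, though their end bases can be shared. CCAAT was in every promoter searched of H1 (6), H2A (16), H2B (18) and H3 (12) but in 3 of 13 H4 promoters, beside 35.7% of all 27305 promoters. TTTGCAT was in 11 of 16 H2A and 14 of 18 H2B promoters, in 1 of 12 H3 promoters and in none of the H1 and H4 promoters, beside 4.51% of all promoters. TATAAA was in 43 of the 65, with 7 of 13 for H4, beside 11.95% of all. A match is a description of these letters and not a measured site. The 150 bases before the start site of HIST1H3B, the most abundant histone gene, of HIST1H2BC, the most abundant H2B gene, and of HIST1H4D, the gene with the widest spread, are shown with the motifs in capitals:
HIST1H3B, chr6:26032100-26032249, - strand: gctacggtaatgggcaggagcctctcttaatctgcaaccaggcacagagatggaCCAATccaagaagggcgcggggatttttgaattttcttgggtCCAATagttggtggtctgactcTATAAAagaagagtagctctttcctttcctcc
HIST1H2BC, chr6:26123927-26124076, - strand: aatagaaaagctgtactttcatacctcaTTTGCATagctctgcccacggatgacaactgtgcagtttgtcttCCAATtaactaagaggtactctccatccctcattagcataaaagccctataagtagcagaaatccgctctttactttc
HIST1H4D, chr6:26189113-26189262, - strand: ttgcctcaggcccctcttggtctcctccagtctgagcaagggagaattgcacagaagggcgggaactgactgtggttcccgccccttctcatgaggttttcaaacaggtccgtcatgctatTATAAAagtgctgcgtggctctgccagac

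A few genes carried most of the histone mRNA of these lines. Of the 76 genes, 58 were above 0 in at least 1 line and 36 in all 13, and 7 were among the 100 most abundant genes of the table. The clustered histone genes together held between 0.933% of all TPM (H179R) and 3.63% (Y234C), with 0.933% to 3.63% in the mutant lines and 1.62% to 2.42% in the control lines. Summed over each class, the mean over 13 lines was 5631 TPM for H1, 5483 for H2A, 3103 for H2B, 5709 for H3 and 587 for H4. H4 was the low class by listed values, although 1 H4 stands beside 1 H3 in a nucleosome. The sums can miss mRNA of copies that a read cannot tell from other histone genes, such as HIST2H4A and HIST2H4B, both listed at 0. The most abundant gene held 45.6% of H1 (HIST1H1E), 34.6% of H2A (HIST1H2AL), 37.6% of H2B (HIST1H2BC), 70.6% of H3 (HIST1H3B) and 36.7% of H4 (HIST1H4B).

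**Figure D1:**
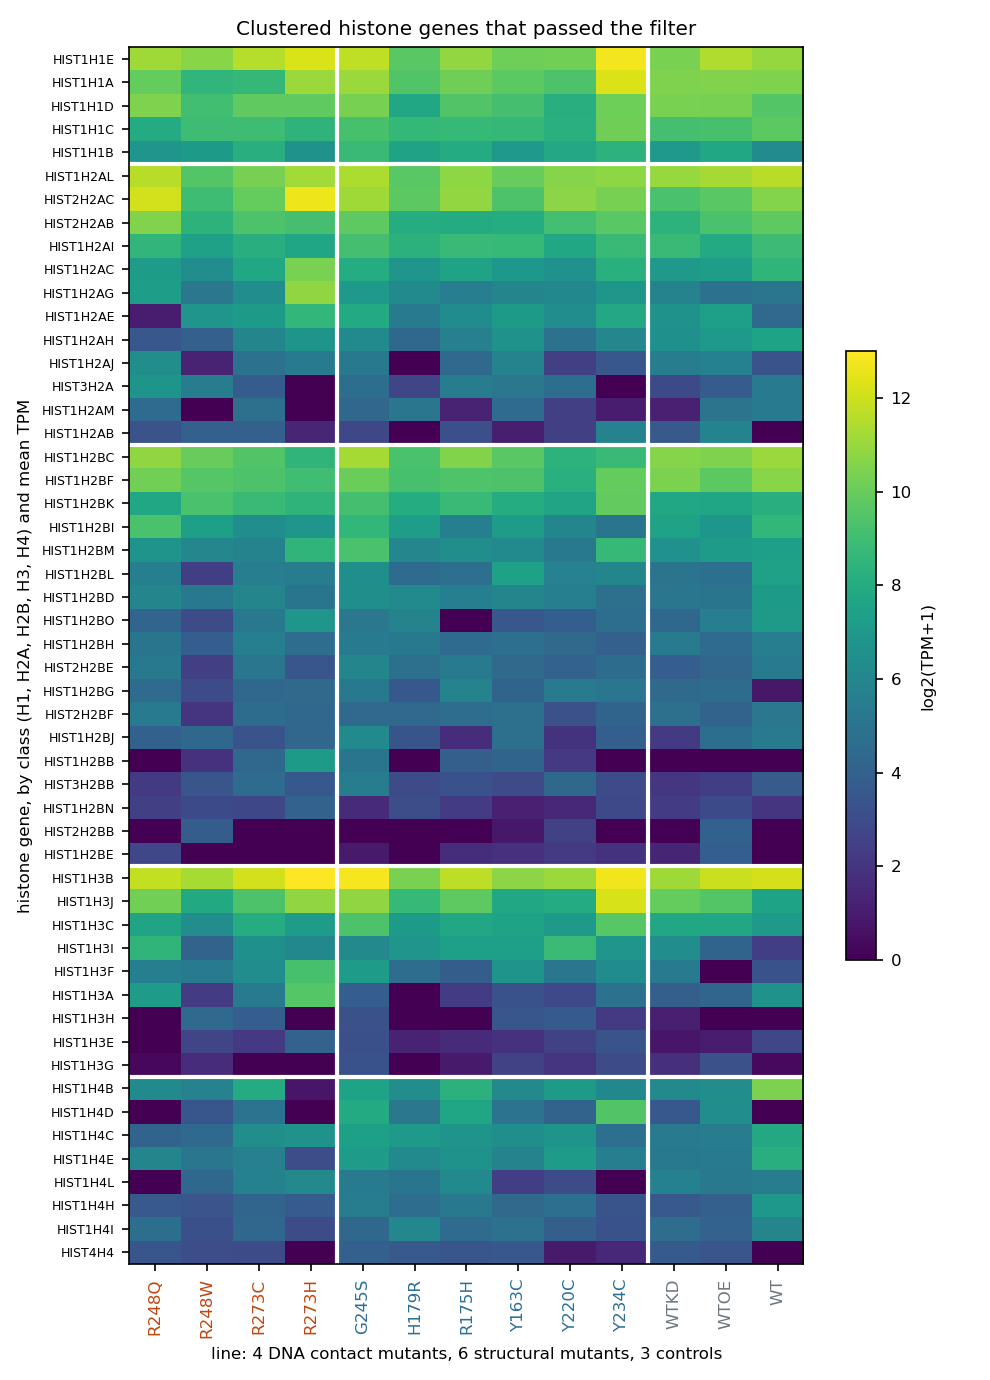
Level of the clustered histone genes in each line, as log2(TPM+1), with genes as rows ordered by class and lines as columns ordered as DNA contact mutants, structural mutants and controls. HIST1H3B was high in every line (10.37 to 13.004), while HIST1H4D reached 9.46 in Y234C and was listed at 0 in R248Q, R273H and WT.

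Of the 5 classes the linker histone genes had the lowest median SD over lines (0.85), though their sum differed by 6.28 times between lines, against 4.78 times for H2B. HIST1H1E (ENSG00000168298, GRCh38 chr6:26156329-26157115), a somatic H1 gene, stood at 2565 TPM on average and ranked 38th of all genes. Its log2 level was 11.13, 10.71, 11.55 and 12.26 in the contact mutants R248Q, R248W, R273C and R273H, 9.70 to 12.76 with a median of 10.57 in the structural mutants, and 10.40, 11.45 and 10.97 in the libraries labelled WTKD, WTOE and WT. Y234C was the highest line and H179R the lowest, and the groups overlapped. HIST1H1A, HIST1H1D and HIST1H1C, other somatic H1 genes, averaged 1459, 873 and 532 TPM. HIST1H1A ran between 8.55 in R248W and 12.34 in Y234C in the mutants and was at 10.49, 10.54 and 10.48 in the libraries labelled WTKD, WTOE and WT, a spread of 0.030 (SD, n = 3). HIST1H1T, the testis linker histone, was above 0 in 1 line alone, the library labelled WTOE (3.37).

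Among the H2A genes, HIST1H2AL averaged 1897 TPM and HIST2H2AC 1854 TPM. HIST2H2AC (ENSG00000184260, chr1:149886918-149887411) was at 12.13, 8.95, 9.95 and 12.67 in R248Q, R248W, R273C and R273H, 9.39 to 11.14 with a median of 10.54 in the structural mutants, and 9.25, 9.69 and 10.59 in the libraries labelled WTKD, WTOE and WT. Its highest and its lowest line were thus both contact mutants, and R273H held 6530 TPM of it against 494 in R248W. HIST1H2AG was at 10.85 in R273H and at 4.89 to 7.28 in the other 12 lines. HIST2H2AB (606 TPM on average) was highest in R248Q, at 10.52, and HIST1H2AI (357 TPM) had the smallest spread of the 52 genes, with an SD of 0.55. A single read cannot tell part of HIST1H2AI from its copies. Of its 75-base stretches, the length of a read, 38.0% are found in no other clustered histone gene. The reads were paired, and what the other read of a pair adds was not counted.

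The H2B genes were led by HIST1H2BC (1167 TPM on average) and HIST1H2BF (865 TPM), followed by HIST1H2BK (388 TPM) and HIST1H2BI (191 TPM). HIST1H2BC (ENSG00000180596), whose annotation also has a spliced model, was at 10.87, 9.96, 9.47 and 8.51 in R248Q, R248W, R273C and R273H, 8.41 to 11.24 with a median of 9.48 in the structural mutants and 10.62, 10.50 and 11.04 in the libraries labelled WTKD, WTOE and WT. G245S was above and Y220C farthest below the controls. HIST1H2BI was highest in R248Q (9.29) and lowest in Y234C (5.06). HIST1H2BB was listed at 0 in 6 lines and reached 7.09 in R273H.

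HIST1H3B (ENSG00000274267, chr6:26031589-26032099) ranked 19th of all genes, at 4031 TPM on average. Its log2 level was 11.83, 11.29, 12.13 and 13.004 in R248Q, R248W, R273C and R273H, 10.37 to 12.85 with a median of 11.39 in the structural mutants, and 11.16, 11.96 and 12.17 in the libraries labelled WTKD, WTOE and WT. R273H, G245S and Y234C (12.72) were the high lines. HIST1H3J came next (1092 TPM) and varied more, between 12.23 in Y234C and 7.54 in WT. HIST1H3C (259 TPM) was also highest in Y234C, at 9.64. HIST1H3B, HIST1H3J, HIST1H3C and the other lettered HIST1H3 genes described here code for the same replication-dependent H3. Among the smaller sources HIST1H3A was listed at 0 in H179R and stood at 9.58 in R273H.

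The H4 genes were low and uneven. HIST1H4B (ENSG00000278705, chr6:26026896-26027283) averaged 215 TPM and was at 6.19, 5.75, 8.01 and 0.78 in R248Q, R248W, R273C and R273H, 6.08 to 8.36 with a median of 6.77 in the structural mutants, and 6.18, 6.42 and 10.44 in the libraries labelled WTKD, WTOE and WT. The library labelled WT thus held 1389 TPM of it and R273H 0.717 TPM. HIST1H4C was at 7.86 in WT and lowest in R248Q (4.14), and HIST1H4L was listed at 0 in R248Q and Y234C and lay between 2.40 and 6.16 in the other lines. The H4 genes named here code for the same protein. Over the 8 H4 genes that passed the filter the median SD over lines was 1.34, with 1.41 for H3, 1.38 for H2A, 1.10 for H2B and 0.85 for H1. The median over the 52 histone genes was 1.22, and 0.953 over all 14884 genes.

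Class sums differed between lines by 4.78 times or more. The H1 sum was highest in Y234C (14733 TPM) and lowest in H179R (2344 TPM), and the H3 sum was highest in Y234C (12551 TPM), R273H (11627 TPM) and G245S (10113 TPM) and lowest in H179R (2015 TPM), a range of 6.23 times. Without HIST1H3B that range was 14.4 times, with R248W then the lowest line. It was 18.0 times, again with R248W lowest, with the 50 highest genes left out of both the TPM total and the sum. HIST1H3B is among those 50, so the ranges are not separate checks. The H2A sum was 13315 TPM in R273H and 2031 TPM in R248W, and the H2B sum was 5569 TPM in G245S and 1165 TPM in Y220C. For H4 the order was another. Its sums were 197, 162, 519 and 200 TPM in R248Q, R248W, R273C and R273H, 483, 875, 311, 445, 862 and 866 TPM in H179R, R175H, Y163C, Y220C, Y234C and G245S, and 257, 328 and 2130 TPM in the libraries labelled WTKD, WTOE and WT. Of the contact mutants, 3 were below all 6 structural mutants, and R273C was within their range. WT alone was 13.2 times the lowest line, and 7.28 times separated the highest and lowest line once HIST1H4B, the most abundant H4 gene, was left out, with Y234C then highest.

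**Figure D2:**
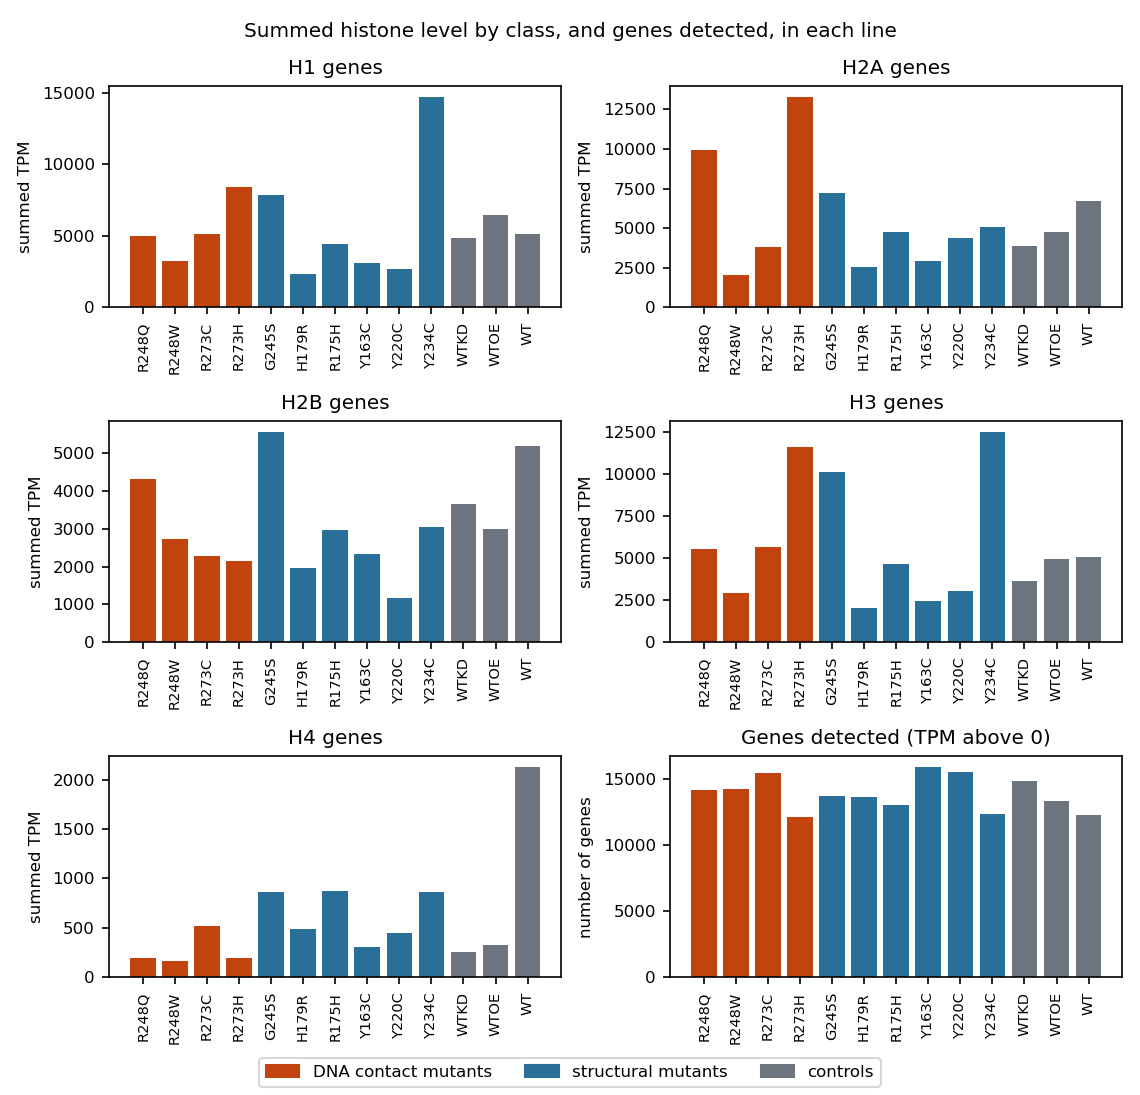
Summed TPM of each histone class in each line, with the mutant lines before the controls. Y234C and R273H held the highest sums for H1 and H3 and R273H that for H2A (13315 TPM), while the H4 sum was highest in WT (2130 TPM) and lay between 162 and 519 TPM in the contact mutants.

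The balance between partners differed between lines. H2A and H2B enter the nucleosome together, and the ratio of their sums was 6.23 in R273H and 0.743 in R248W, against 1.06 to 1.59 in the controls. H3 and H4 form a tetramer, and the ratio of their sums was 58.2 in R273H and 4.17 in H179R within the mutant lines, against 14.1, 15.2 and 2.37 in the libraries labelled WTKD, WTOE and WT. These are ratios of listed mRNA levels and not of proteins, and they can miss mRNA of copies that a read cannot tell apart.

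Over the 13 lines the H1 and H3 sums followed each other closely (Pearson's r = 0.94, Spearman's rho = 0.93), also without R273H and Y234C (r = 0.93, 11 lines). H2A followed H3 less closely (r = 0.75, and 0.77 without both lines), and H2A and H2B were at r = 0.35 (0.59 without both lines), while H4 was at r = 0.11 to 0.33 with the other 4 classes. These are descriptions over 13 lines whose points share a library and its composition. The sum over all histone genes was higher where fewer genes were detected (r = -0.66, and -0.46 without R273H and Y234C) and where the 50 highest genes held more of the TPM (r = 0.74, and 0.70 without both). The share of the 50 highest genes is itself partly histone mRNA, with HIST1H3B and HIST1H1E among them by mean level. Part of the r with that share is thus built in. The part of library composition in the class sums was not tested. The 50 highest genes by mean level, HIST1H3B and HIST1H1E among them, were then left out of the TPM total and of the sums. The sum over all classes still spanned 4.13 times and kept r = 0.98 over lines with the values above, but the lowest line became R248W.

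Most pairs of single genes followed each other weakly. Over all 1326 pairs of the 52 genes the median r over the 13 lines was 0.10, and over the 293 pairs within a class it was 0.15. By class the median lay between 0.10 for H2B and 0.38 for H1. H2A and H2B genes often stand head to head with start codons under 400 bases apart, and 14 such pairs were found. In 9 of them both genes passed the filter, and their median r was 0.30, beside 0.17 over all 216 H2A and H2B combinations. HIST1H2AI and HIST1H2BL, 303 bases apart, had r = 0.60, and HIST1H2AC and HIST1H2BC, 328 bases apart, had r = -0.17. Neighbours could also differ in level: HIST2H2AC averaged 1854 TPM and its partner HIST2H2BE 26.7 TPM.

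In G245S most histone genes lay above the median line and in R248W most lay below it. In some other lines the classes moved apart. In G245S, 43 of the 52 genes were above the median line, beside 6710 of 14884 over all genes tested. The median difference from that line was 0.83 on the log2 scale, while over all genes it was 0.00. In R248W, 11 of the 52 were above the median line, beside 7960 of 14884 over all genes. The median was -0.76 (all genes 0.07), and none of the 8 H4 genes was above. In Y234C all 5 H1 and all 9 H3 genes were above the median line and 1 of 8 H4 genes was. Over all genes 3278 of 14884 were above in Y234C, with a median of -0.59. In R273H the H4 genes had a median of -2.02 with 2 of 8 above, and the H3 genes a median of 1.17. Over all genes 3705 of 14884 were above in R273H, with a median of -0.38. R175H was the only line with all 8 H4 genes above the median line, by a median of 0.89, and H179R had 7 of 8 H4 genes above it but none of its 5 H1 genes. In WT the H4 genes stood at a median of 1.46 and the H3 genes at -1.14. That H3 median is the value of HIST1H3H, a low gene listed at 0 in WT. HIST1H3B was at 12.17 in WT, above its median of 11.83, and the H3 sum was 5050 TPM, beside a median of 4987 TPM over all lines.

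Mutant lines were compared with the control lines by limma over all 14884 genes, two-sided and adjusted by the Benjamini-Hochberg method. No histone gene of the 52 passed an adjusted p of 0.05, beside 0.0202% of all genes (3 genes), and the lowest adjusted p of a member was 0.675. At an unadjusted p under 0.05 there were 4 of 52, or 7.69%, beside 4.83% of all genes, with 3 higher (1.93% of all genes) and 1 lower (2.9%). In no histone gene were the 10 mutant lines clear of the 3 controls, beside 1% of all genes. Differences were positive for 20 of the 52 (38.5%, beside 45% of all genes), with a median of -0.19, beside -0.08 over all genes. By class, 2 of 5 H1, 3 of 12 H2A, 6 of 18 H2B, 7 of 9 H3 and 2 of 8 H4 genes were higher in the mutants by their means, with medians of -0.47, -0.18, -0.31, 0.57 and -0.47. These medians moved with single lines. That of H3 was 0.21 without WT, 0.28 without Y234C and 0.08 without R273H and Y234C, that of H4 -0.10 without WT and -0.91 without WTOE, and that of H2B -0.06 without WT or without WTOE. That of H1 lay between -0.72 and -0.30 and that of H2A between -0.40 and -0.03 when each line was left out in turn. With 1 library per line the spread behind each p is that between lines, and the controls are 3 lines of different kinds. Without the library labelled WTOE 2 histone genes had an unadjusted p under 0.05, and without that labelled WT 1 had.

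HIST1H3F, a gene of replication-dependent H3, had the lowest p. It was at 3.81 to 9.23 with a median of 5.95 in the 10 mutant lines, and at 5.396, 0.00 and 3.26 in the libraries labelled WTKD, WTOE and WT. Only WTKD reached the range of the mutants, and WTOE was listed at 0. The difference of means was 3.14 on the log2(TPM+1) scale (SE 1.02, limma unadjusted p = 0.00694, adjusted p = 0.675), and 1.70 without WTOE. HIST1H3I, another such gene, was at 4.14 to 8.88 with a median of 6.80 in the mutants and at 6.36, 4.18 and 2.40 in the libraries labelled WTKD, WTOE and WT, a difference of 2.54 (SE 0.86, limma adjusted p = 0.750), which was 1.58 without WT and 3.56 without WTKD. HIST1H2BB was listed at 0 in all 3 controls and in R248Q, H179R and Y234C, and at 1.91 to 7.09 in the other 7 mutant lines. Since all controls are listed at 0, no fold is given for it (limma adjusted p = 0.932).

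The 3 genes with the lowest p among those lower in the mutants by their means were H2A and H2B genes. HIST1H2AH was at 3.54 to 6.75 with a median of 5.80 in the mutant lines and at 6.53, 6.99 and 7.54 in the libraries labelled WTKD, WTOE and WT. Only R273H (6.75) and Y163C (6.70) were above the lowest control. The difference was -1.61 (SE 0.66, limma unadjusted p = 0.0265, adjusted p = 0.932). HIST1H2BF was at 8.24 to 10.24 with a median of 9.38 in the mutants and at 10.43, 9.71 and 10.67 in the libraries labelled WTKD, WTOE and WT, with a difference of -0.83 (SE 0.46). HIST1H2BC gave -1.05 (SE 0.59, limma adjusted p = 0.932 for both genes), with R248Q and R175H inside the range of the controls and G245S above it.

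The genes around the histone genes were described from lists written beside the members. Of 12 replication-independent histone genes such as H2AFZ, H3F3B and H2AFX, 7 were higher by their means in the mutants, with a median of 0.04. Of 19 genes for histone transcription and mRNA processing 8 were, with a median of -0.41, of 19 histone chaperone genes 6, of 24 S phase genes 6 and of 19 G2 and mitosis genes 2, the last with a median of -0.40. None of these genes passed the adjusted threshold. The summed level of the G2 and mitosis genes was 2385 to 4938 TPM in the mutant lines and 5369 to 6165 TPM in the controls, with no overlap. By the mean log2 level of the same genes the groups overlapped, with R248W at 7.755 and WT at 7.747. The sum of the S phase genes was 1820 to 2955 TPM in the mutant lines and 2417 to 3214 TPM in the controls. MKI67, the proliferation marker, gave -1.14 (limma unadjusted p = 0.0230, adjusted p = 0.932). The sum over all clustered histone genes had r = -0.43 with the mean level of the S phase genes over the 13 lines (-0.19 without R273H and Y234C). The part of cell cycling in the histone differences was not tested.

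**Figure D3:**
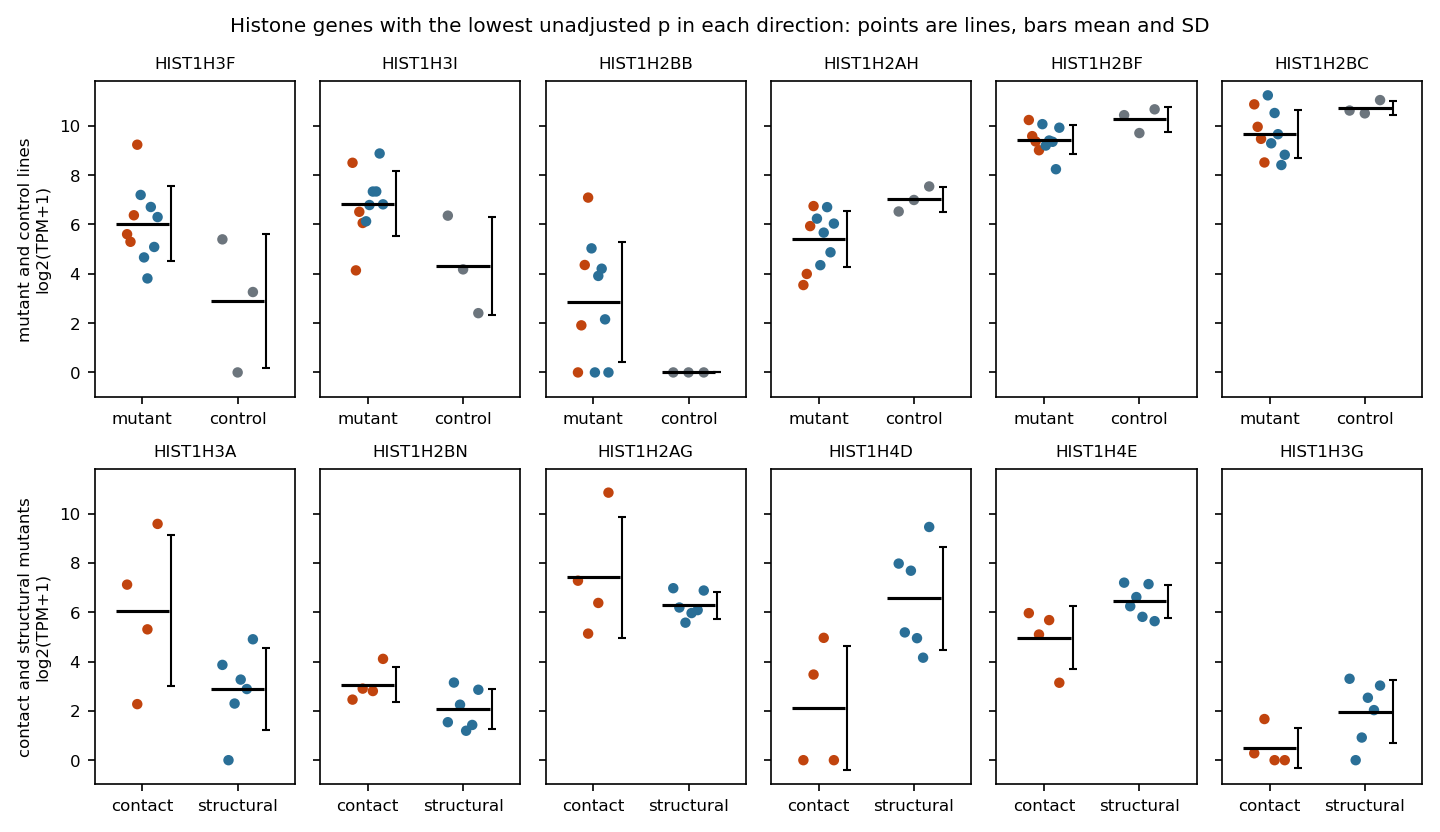
Level as log2(TPM+1) of the histone genes with the lowest unadjusted p in each direction, with 1 point per line and the mean and SD of each group, mutant before control lines and contact before structural mutants. HIST1H3F was at 3.81 to 9.23 in the mutants and at 0.00 to 5.396 in the controls, and HIST1H4D at 0.00 to 4.96 in the contact and at 4.16 to 9.46 in the structural mutants.

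Contact mutants were then compared with structural mutants. No histone gene of the 52 passed an adjusted p of 0.05 in limma, beside 0% of all genes, and the lowest adjusted p of a member was 0.920. The count at an unadjusted p under 0.05 was 4 of 52, or 7.69%, beside 4.93% of all genes, with 1 higher (2.86% of all genes) and 3 lower (2.07%). None had groups that did not overlap, beside 1.03% of all genes. Differences were positive for 24 of the 52 (46.2%, beside 50.4%), with a median of -0.04, beside 0.01 over all genes. By class the medians were -0.35 for H1, 0.37 for H2A, 0.02 for H2B, -0.01 for H3 and -0.99 for H4, and 1 of 8 H4 genes was higher in the contact mutants by its mean, against 8 of 12 H2A genes. The median for H4 lay between -1.30 and -0.64 when each line was left out in turn, that for H2A became -0.02 without R273H, and that for H1 -0.10 without Y234C.

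HIST1H4D (ENSG00000277157, chr6:26188710-26189112) had the lowest p. It was at 0.00, 3.47, 4.96 and 0.00 in R248Q, R248W, R273C and R273H, and at 5.18, 7.68, 4.95, 4.16, 9.46 and 7.97 in H179R, R175H, Y163C, Y220C, Y234C and G245S. R273C alone was above the 2 lowest structural mutants, Y163C and Y220C. In the controls it was at 3.60, 6.39 and 0.00 in the libraries labelled WTKD, WTOE and WT, so WT was listed at 0 like R248Q and R273H. The difference of means was -4.46 (SE 1.17, limma unadjusted p = 0.00201, adjusted p = 0.920).

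HIST1H4E, a second gene for the same H4 protein, was at 5.96, 5.10, 5.68 and 3.14 in R248Q, R248W, R273C and R273H, and at 5.64 to 7.198 with a median of 6.43 in the structural mutants. The contact mutants R248Q and R273C lay inside the range of the structural ones. The difference was -1.47 (SE 0.60, limma unadjusted p = 0.0278, adjusted p = 0.960), and -0.86 without R273H. HIST1H4B and HIST1H4C had contact means of 5.18 ± 3.09 and 5.42 ± 1.33 (SD, n = 4) and structural means of 6.95 ± 0.89 and 6.50 ± 0.93 (SD, n = 6), where HIST1H4C was lowest in Y234C (4.72).

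HIST1H3A went the other way. It was at 7.12, 2.27, 5.31 and 9.58 in R248Q, R248W, R273C and R273H, and at 0.00 to 4.90 with a median of 3.08 in the structural mutants, with a difference of 3.20 (SE 1.19, limma unadjusted p = 0.0180, adjusted p = 0.960), and 2.03 without R273H. R248W was inside the structural range. HIST1H3G, a low H3 gene, gave -1.48 (SE 0.67, limma adjusted p = 0.960), with means of 0.49 ± 0.80 in contact and 1.97 ± 1.28 in structural mutants (SD, n = 4 and n = 6). HIST1H2BN gave 1.00 (SE 0.54), or 0.65 without R273H, and HIST1H2AG 1.13 (SE 0.86). The value of HIST1H2AG rests on R273H, since without that line it was -0.016.

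HINFP, the transcription factor known to act on H4 gene promoters, was looked up after the H4 values were seen. Its log2 level was 1.22, 1.41, 1.27 and 0.00 in R248Q, R248W, R273C and R273H, and 0.91 to 5.53 with a median of 2.40 in the structural mutants. Its difference was -1.93 (SE 0.79, limma unadjusted p = 0.0284, adjusted p = 0.960). In the controls it was at 2.77, 3.39 and 0.00 in the libraries labelled WTKD, WTOE and WT. SLBP was at 7.91 to 8.97 in the contact and 7.36 to 8.22 in the structural mutants. E2F1, a driver of S phase entry, was at 4.09 to 5.06 in the contact and at 1.84 to 3.91 in the structural mutants, with a difference of 1.79 (limma unadjusted p = 0.00397, adjusted p = 0.960). Its groups did not overlap, as was the case for 1.03% of all genes. HINFP and E2F1 were the 2 genes with an unadjusted p under 0.05 among 19 for histone transcription and mRNA processing, of which 10 were higher in the contact mutants by their means, with a median of 0.01. Of the 24 S phase genes 15 were, with a median of 0.16, and none had an unadjusted p under 0.05. Among the 7 basal mammary markers 1 was higher in the contact mutants by its mean and 6 were lower, and none passed the adjusted threshold (lowest limma adjusted p = 0.764). TP63 was at 3.25, 0.00, 0.00 and 0.00 in R248Q, R248W, R273C and R273H and at 1.83 to 4.87 in the structural mutants, with R248Q inside their range. The part of these genes in the histone values was not tested.

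The 18 genes listed at 0 in all 13 lines were 4 H2A, 4 H2B, 6 H3 and 4 H4 genes. A read that fits near-identical copies equally well cannot be assigned to 1 of them, so the listed value of such a gene can miss its mRNA. Of the 18, 5 have no stretch of their own, since HIST2H2AA4, HIST2H3A, HIST2H3C, HIST2H4A and HIST2H4B hold no 75-base stretch that is absent from the other histone genes. HIST2H2BD has 5.25% of its stretches to itself. HIST1H2AA, HIST1H2BA and HIST3H3, which are known for expression in testis, are fully distinct and were listed at 0 in these mammary lines. HIST1H2AD and HIST1H3D are also fully distinct, but both overlap exons of AL031777.3, a row that ran between 0 and 3.63 and was above 0 in 7 lines, and a read in 2 genes is not assigned by the STAR gene counting that the authors name. For such genes 0 is a listed value, and whether their mRNA was absent was not tested.

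**Figure D4:**
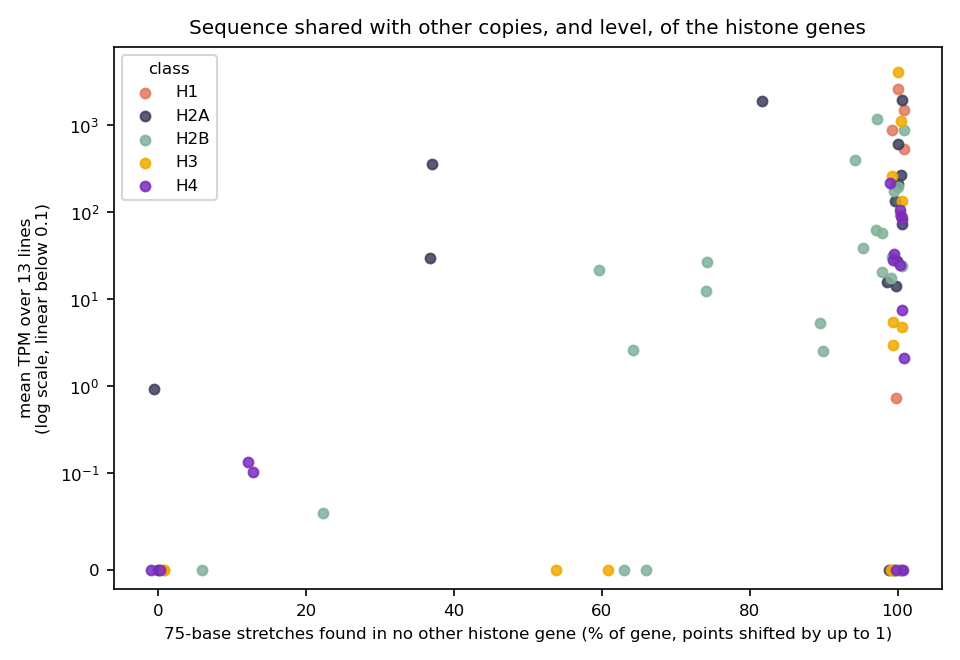
Mean level over 13 lines, in TPM on a log axis that is linear below 0.1, of each clustered histone gene against the percentage of its 75-base stretches found in no other clustered histone gene, coloured by class. Genes without any stretch of their own were at or near 0, while genes at 100% were found at every level, from 0 to that of HIST1H3B (4031 TPM).

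Binding of V5-tagged p53 near these genes was read from 1 peak list per line. A promoter was taken as 2500 bases before to 100 bases after a start site. In R273C no histone gene had a peak in its promoter (0.0606% of all genes had 1, from 733 peaks), and in Y234C none (0.819%, 2145 peaks). In R273H it was HIST1H2AL alone (1.98%, 25309 peaks) and in Y220C HIST3H3 alone (0.428%, 1575 peaks). In the list of the line labelled WTOE there were 9 of 76 (3.72%, 11277 peaks), namely HIST2H2AA3, HIST2H2BC, HIST2H2BD, HIST2H2BF, HIST2H3C, HIST2H3D, HIST3H2BA, HIST3H2BB and HIST3H3. All 9 lie on chromosome 1, which held 25.2% of all WTOE peaks. On that chromosome 9 of 20 histone genes and 9.93% of 5229 genes had a promoter peak, and on chromosome 6 it was none of 55 and 1.16% of 2838 genes. HIST2H2AA3, HIST2H2BD and HIST2H3C share 1 peak and HIST2H2BF and HIST2H3D another, while the peaks of the other 4 genes are listed for no other histone gene.

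The strongest peak by q in WTOE lay at HIST2H2BF (GRCh38, chr1:149811477-149811924, with its summit 113 bases behind the nearest start site), with a fold enrichment of 3.76 and a -log10 q of 3.83, where the list had a median fold of 3.08, 12.7% of its peaks at a higher -log10 q and 8.99% at a higher fold. The shares at a higher -log10 q were 18.3% for HIST3H2BA, 19.9% for HIST2H2BC and 25.8% for HIST3H2BB, and 59.8% to 79.2% for the best peaks of HIST3H3, HIST2H2AA3, HIST2H2BD, HIST2H3C and HIST2H3D. The R273H peak at HIST1H2AL (chr6:27864087-27864534) had a fold of 4.22 and a -log10 q of 2.49, with 68.6% of the peaks of that list at a higher -log10 q. Its summit lay at -995 bases from the nearest start site. The Y220C peak at HIST3H3 (chr1:228425305-228425899) had a fold of 3.43. No match to the canonical p53 decamer was found within 150 bases of any of the 11 summits of the peaks at these genes. Of all summits on chromosome 1, 6.46% in WTOE, 5.95% in R273H and 3.37% in Y220C had 1. With shares this low, the lack of a match at 11 summits cannot set these peaks apart. Of the 9 genes with a WTOE peak, HIST2H2BF and HIST3H2BB passed the expression filter, with 21.6 and 12.4 TPM on average. HIST2H2BF was at 4.13 in WTOE, and at 1.98 to 5.30 in the other lines. HIST1H2AL was at 11.18 in R273H, and at 9.4996 to 11.62 in the other lines. The genes with most histone mRNA, among them HIST1H3B, HIST1H1E and HIST2H2AC, had no promoter peak in any of the 5 lists.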

How the data were processed

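RNA of 13 MCF10A lines and V5 ChIP-seq of 5 were used, with 1 library per line, so p-values measure the spread between lines. For RNA, the authors amplified total RNA, aligned reads with STAR to GRCh38, left mitochondrial RNA out of the gene counts and deposited log2(TPM+1). Depth is unknown, so a TPM has no counting interval here. For ChIP, the authors aligned with Bowtie2 2.1.0, filtered with SAMtools 1.7 and called peaks per line with MACS2 2.1.2.20181017 against input. The deposited fold is the ratio of ChIP to input at the summit, MACS2 also gave the deposited -log10 p, the deposited -log10 q and the deposited score, 10 times the -log10 q, and the summit offset is in bases.

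Values were fitted with limma 3.58.1 in R 4.3.3 on log2(TPM+1) for genes at 1 or more in at least 3 lines, over the whole table, after the code was tested on simulated data. No count model was used, since the table holds no counts. Python 3.11.15, numpy 2.4.6, pandas 2.3.3 and matplotlib 3.10.9 did the rest. Gene positions and stop codons came from GENCODE 44, promoters and symbols from RefSeq. Stretches of 75 bases were compared between the coding sequences, with 50 bases on either side, of the clustered histone genes and the whole histone pseudogenes. The members, lists and tests were chosen with earlier results of these data known. Genes named were, per class, the 4 with the highest mean TPM, the 6 with the widest spread, the 3 with the lowest p in each direction of each comparison, and any with a promoter peak. Other genes named were chosen after their values were seen. Alternatives were another pseudocount, no filter and a stricter filter, quantile normalization, rescaling without the 50 highest genes, genes detected as a covariate, a fit of 3 groups, leaving out each line or both R273H and Y234C, and for peaks a stricter q, a shorter promoter and the summit in place of any overlap. A check of the labels by the level of the targeted gene is not reported here.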

Additional observations from a re-analysis of the deposited data

Results flagged for a closer look

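Within the groups of 4 or 6 mutant lines, 75 sets of values were searched for a line far from the others, and 5 were found, where chance gives about 1 in 20. HIST1H4C, an H4 gene, was at 4.72 on the log2(TPM+1) scale in Y234C, and at 6.47 to 7.39 in the other 5 structural mutants. HIST1H3G was at 1.67 in R248W and at 0 to 0.28 in the other 3 contact mutants. HIST2H2AA3, which has no 75-base stretch of its own, was at 2.68 in R273C and at 2.90 in Y163C and was listed at 0 in the other lines. HIST2H2BC was at 0.82 in Y163C alone. For HIST2H2AA3 and HIST2H2BC all other lines of the group were listed at 0, so any value above 0 is flagged. The rate of 1 in 20 does not apply to such sets.

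Of the 14 numbered pseudogene rows left out of the rule, 3 had a mutant line above every control. HIST1H1PS1 was at 2.68 in R248Q and at 0 in the controls, HIST1H2APS4 at 4.29 in R248W and at 3.51 or less in the controls, and HIST1H3PS1 at 1.63 in Y220C and at 0 in the controls. The opposite was seen for HIST1H2BPS3, at 4.97 in WTOE and at 1.29 or less in the mutant lines. HIST1H2APS5 was likewise highest in a control, at 3.85 in WTKD and at 0 in the mutant lines. Mutant lines outnumber the controls, so by chance alone the highest line of a row is more often a mutant. None of these rows was tested between groups.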

How the results depend on the processing

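No paired analysis was possible because each line has 1 library and the labels give no replicate numbers. No histone gene passed an adjusted p of 0.05 in any of the 20 alternatives for mutant versus control lines or the 18 for contact versus structural mutants, while 0 to 11 and 0 to 5 of all genes did. At an unadjusted p under 0.05 the count of histone genes ran from 2 to 4 for mutant versus control lines and from 1 (stricter filter) to 5 for contact versus structural mutants, and with each line left out in turn from 1 (without WT) to 5 and from 2 (without R273H, G245S or Y220C) to 6. The contact minus structural difference of HIST1H2AG ran from -0.016 (without R273H, limma adjusted p = 0.999) to 1.89 (without R248W), so its direction changed with 1 line. The adjusted p of HIST1H3F lay between 0.264 and 0.970 and that of HIST1H4D between 0.649 and 1. The 9 promoters with a WTOE peak became 3 at a -log10 q of at least 3 and 5 with 500 bases upstream. They became 6 with the summit inside the promoter. At that stricter q the counts of 1 in R273H and 1 in Y220C both became 0, and that in R273H also with 500 bases upstream. Unknown depth and 1 library per line limit what could be called.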
